A study of Mus musculus with 6 samples.

Results

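Gata3 encodes a zinc-finger transcription factor that directs naive CD4 T cells toward the Th2 fate and is also needed for T cell development in the thymus. Ezh2 is the enzyme of Polycomb repressive complex 2: it places methyl groups on lysine 27 of histone H3, a mark known for keeping lineage genes silent. Th1 cells make interferon gamma under the factor T-bet, whereas Th2 cells depend on GATA3 for interleukins 4, 5 and 13, so the gene is a switch point between both fates. The question was where Ezh2 lay at the Gata3 locus in Th1 and in Th2 cells.

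The locus is defined by position alone, but it was picked for study with earlier results of these data known. It is 1 gene, taken as the 60 kb of mm9 chromosome 2 from 9770001 to 9830000. The gene is on the minus strand with its 5′ end near 9800600, so higher coordinates are upstream. The window gave 60 bins of 1 kb, out of 2463072 bins that held any read on chromosomes 1 to 19 and X.

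The chromatin came from splenic CD4 T cells of C57BL/6 mice, sorted as naive by low CD44 and high CD62L, and then cultured for 5 days. All cultures received interleukin 2. For the first 2 days plate-bound antibodies stimulated the TCR β chain together with CD28, and 3 days without these antibodies followed. Th1 cultures had IL-12 at 10 ng/ml with an antibody against IL-4, and Th2 cultures had IL-4 at 100 ng/ml with an antibody against interferon gamma. Both cell types are in vitro polarised populations, the labels give no purity, and Ezh2 and input DNA carry no marker expression with which to check them. Each group was 1 library, so no spread between cultures could be measured.

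Libraries from a pull-down with a polyclonal anti-Ezh2 antibody, from input DNA and, in Th1, from a control rabbit IgG were used. The Th2 control library, whose file as used here has no line of chromosome 2, was not analysed. The unit counted is a distinct interval, that is, 1 deposited genomic interval of 119 bases however many reads shared it. The libraries held 10809666 (Th1 Ezh2), 14963599 (Th2 Ezh2), 15578675 (Th1 input), 12862628 (Th2 input) and 9326717 (Th1 control) of these on chromosomes 1 to 19 and X. Every p-value and 95% interval here covers counting error only and compares these libraries, not the cell types as populations. With 1 Ezh2 library per cell type, a technical difference between libraries cannot be told apart from one between cell types.

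The start of Gata3 is rich in CG pairs, the sequence class at which Polycomb complexes are often found in mammals. The 250 bases before the annotated start, from RefSeq on GRCm38.p6 at chr2:9878601-9878850 on the minus strand, held 19 CG pairs and had a GC content of 70.0%. At least that many CG pairs were present in 19.7% of 32851 RefSeq promoters of the same length, whose median was 6. A divergent long noncoding RNA gene, 4930412O13Rik, overlaps the annotated span of Gata3. Its 250 bases, at chr2:9880996-9881245 on the plus strand, held 15 CG pairs, a number reached by 27.3% of promoters. Both are shown 5′ to 3′ with each CG in capitals, because the Ezh2 signal described next lay upstream of the Gata3 start.
Gata3: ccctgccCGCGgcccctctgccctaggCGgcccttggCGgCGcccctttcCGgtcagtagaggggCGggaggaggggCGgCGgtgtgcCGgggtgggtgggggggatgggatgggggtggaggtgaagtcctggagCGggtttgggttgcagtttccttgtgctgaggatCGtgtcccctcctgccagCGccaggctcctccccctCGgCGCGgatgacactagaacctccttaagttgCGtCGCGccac
4930412O13Rik: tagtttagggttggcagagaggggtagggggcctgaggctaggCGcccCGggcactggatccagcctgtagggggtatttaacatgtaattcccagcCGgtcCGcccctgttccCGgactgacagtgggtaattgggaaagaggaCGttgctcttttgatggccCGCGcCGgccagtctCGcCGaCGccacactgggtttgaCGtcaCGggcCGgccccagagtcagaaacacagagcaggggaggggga
Neither sequence held GATA, the core bound by GATA factors, on either strand, whereas 53.6% of the promoters did. These positions follow GRCm38.p6 and were not converted to mm9, so neither sequence was laid on the reads. Mouse Gata3 is known to have a distal promoter besides the proximal one, and the upstream side can therefore hold transcribed parts of the gene. A further long noncoding RNA gene, 9230102O04Rik, also overlaps the annotated span. The next protein-coding genes are Taf3 on the 5′ side, which encodes a subunit of the general transcription factor TFIID, and Celf2 on the 3′ side, which encodes an RNA-binding protein that regulates splicing.

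Ezh2 at Gata3 was enriched upstream of the proximal 5′ end in both cell types and stood close to input on the other side of it. On the upstream side, the 29.4 kb from 9800601 to 9830000, the Th1 Ezh2 library held 743 intervals against 244 in its input. That was 4.39-fold over input after division by the library totals (95% exact interval 3.79 to 5.09, two-sided exact binomial p = 5.01e-106). The Th2 Ezh2 library held 693 intervals there against 247 in its input, which was 2.41-fold (2.08 to 2.80, exact binomial p = 3.12e-36). The Th1 control antibody library held 166, which was 1.14-fold (0.927 to 1.39, exact binomial p = 0.203). The intervals of the Ezh2 folds overlapped neither each other nor that of the control.

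Among the 81911 tiles of 30 kb in the genome with at least 50 intervals in each input, 156 had a higher Th1 fold than the upstream side. A higher Th2 fold was found in 1034. The median tile was at 0.883-fold in Th1 and 0.881-fold in Th2. A typical tile therefore lies a little below 1 by this scaling, and the upstream side is to be read against that level.

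On the gene side, the 30.6 kb from 9770001 to 9800600, the counts were close to input. This side holds the gene from its proximal 5′ end on, and sequence beyond its 3′ end. The Th1 Ezh2 library held 194 intervals against 269, or 1.04-fold (95% exact interval 0.860 to 1.25, exact binomial p = 0.705). The Th2 Ezh2 library held 225 against 217, or 0.891-fold (0.736 to 1.08, exact binomial p = 0.233). The control antibody stood at 1.12-fold (0.920 to 1.35). These intervals do not reach the folds of the upstream side, so an enrichment of that size across the gene side would have been visible at this depth. Scaling to background bins took the totals from 10 kb bins whose Ezh2 over input lay below the genome median. That raises all folds by design, so a p-value against 1 is then no evidence of enrichment. This scaling put the gene side at 1.48-fold in Th1 (exact binomial p = 3.76e-05) and 1.25-fold in Th2 (exact binomial p = 0.0191). The upstream side then stood at 6.26-fold and 3.39-fold.

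**Figure D1:**
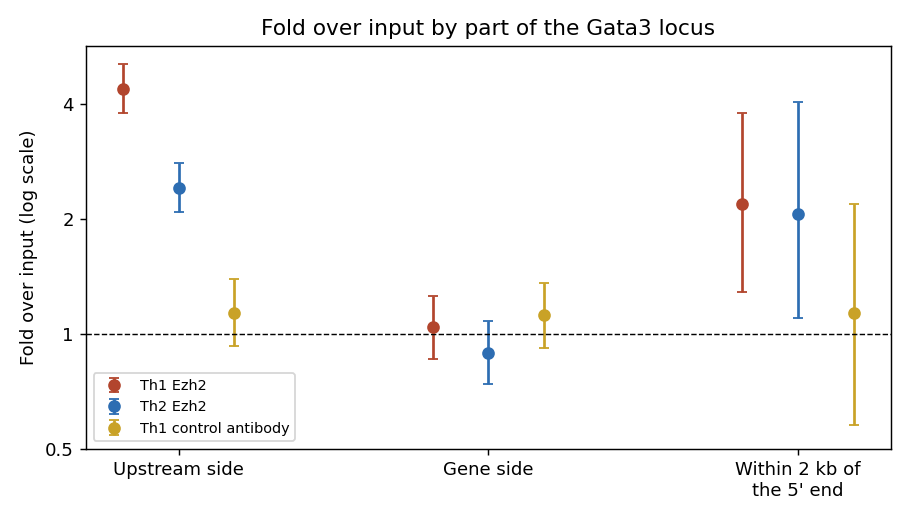
Fold over input (log scale) in 3 parts of the Gata3 locus for Th1 Ezh2, Th2 Ezh2 and the Th1 control antibody; points are folds after division by library totals and bars are 95% exact intervals for counting error, with 1 library per group. The upstream side stands at 4.39-fold in Th1 and 2.41-fold in Th2, and the gene side lies near 1 in all of them.

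The window within 2 kb of the 5′ end held few intervals. The Th1 Ezh2 library had 38 against 25 in input, or 2.19-fold (95% exact interval 1.29 to 3.79, exact binomial p = 0.00289), and the Th2 Ezh2 library had 36 against 15, or 2.06-fold (1.10 to 4.06, exact binomial p = 0.0168). The control antibody was at 1.14-fold (0.576 to 2.19). With 1 kb to each side the values were 1.83-fold in Th1 (exact binomial p = 0.154) and 2.21-fold in Th2 (exact binomial p = 0.0734), so neither passed. The Th2 value also failed to pass with the other input (1.499-fold, exact binomial p = 0.125), at equal depth (1.67-fold, p = 0.135) and with 5 kb to each side (1.21-fold, p = 0.214). The Th1 value passed in these settings, at 3.01-fold (exact binomial p = 1.54e-04), 2.26-fold (p = 0.00337) and 2.94-fold (p = 7.27e-19). In the single bin that holds the 5′ end, from 9800001 to 9801000, the counts were 8 Ezh2 and 7 input intervals in Th1, and 5 and 4 in Th2. Within 1 kb of the proximal start, enrichment was therefore not detectable at this depth.

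Bin by bin, Ezh2 formed a long block in Th1 and a shorter one inside it in Th2. A call needed an Ezh2 fold of 2 or more, with 0.5 added to each count, and p under 0.05 by a one-sided exact binomial test after Benjamini-Hochberg adjustment across the genome. In Th1, 17 of the 29 bins wholly upstream were called, with 28 tested, against 0.992% of the 1332288 bins tested in the genome. In Th2, 6 of 29 were called, against 1.21% of 1414330. Of the 30 gene-side bins, 27 were tested in Th1 and 25 in Th2, and none was called in either library. The control antibody gave no call at the locus, with 22 of the 29 upstream and 26 of the 30 gene-side bins tested. Its genome-wide share was 0.00151%. Of the called bins, 5 were shared, which is 29.4% of those in Th1 and 83.3% of those in Th2. The same shares over the genome are not given here, so these values do not show whether such an overlap is particular to Gata3.

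The called bins of Th1 merged into 1 region from 9802001 to 9821000, which starts 1.40 kb upstream of the 5′ end and ends 20.4 kb upstream. Its 19 kb held 646 Ezh2 and 169 input intervals, 5.51-fold (95% exact interval 4.64 to 6.56). Only 53 of the 5664 regions called in Th1 were longer. In Th2 the region ran from 9812001 to 9818000, 11.4 to 17.4 kb upstream, with 257 Ezh2 and 38 input intervals, 5.81-fold (4.12 to 8.40). Longer regions numbered 611 of 6223 in Th2. These folds describe regions chosen for being high in the same libraries and are not a test. The extent in Th2 depended on the settings more than in Th1. With all deposited reads 16 kb of the locus was called in Th2 and 18 kb in Th1, and with 2 kb bins these were 14 kb and 20 kb.

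With both Ezh2 libraries pooled against both inputs, the called region was 9804001 to 9822000, 18 kb long, with 1154 Ezh2 and 294 input intervals. By this pooled rule 1.28% of tested bins were called in the genome. The next pooled call was 927 kb away on the gene side and 379 kb away on the upstream side, so no other pooled bin of the window was called. In the libraries taken singly, the next call on the upstream side was 463 kb away in Th1 and 122 kb away in Th2.

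**Figure D2:**
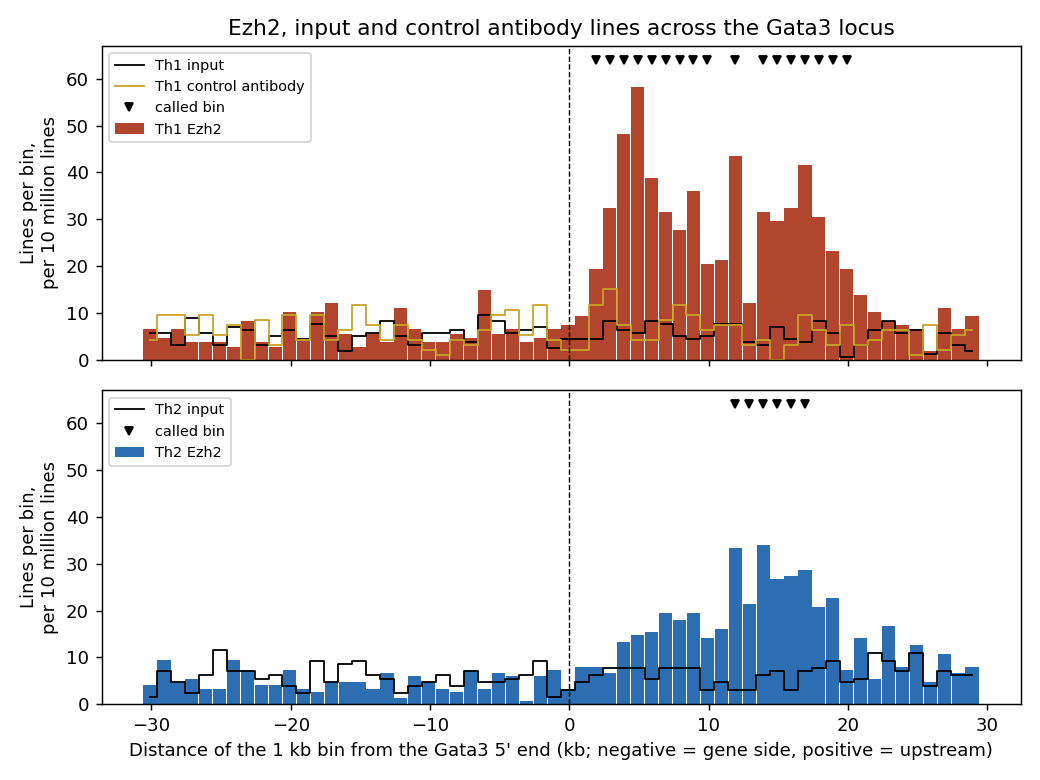
Distinct intervals per 1 kb bin, scaled to a library of 10000000 intervals, by distance from the Gata3 5′ end in kb; bars are Ezh2, lines are input and the Th1 control antibody, and triangles mark called bins. The Th1 bars rise within the first 5 kb upstream and stay high to about 20 kb, while the tallest Th2 bars and all 6 called Th2 bins lie between 11.4 and 17.4 kb.

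The position of the bin with the most Ezh2 intervals differed between the libraries, but which bin was highest depended on the measure. In Th1 the bin with the most Ezh2 intervals ran from 9805001 to 9806000, 4.40 to 5.40 kb upstream, with 63 Ezh2 against 9 input intervals (10.1-fold, 95% exact interval 4.99 to 23.1, adjusted exact binomial p = 3.23e-13). The same bin held 22 Ezh2 and 10 input intervals in Th2 (adjusted exact binomial p = 0.730), and 4 control intervals. In Th2 the highest bin ran from 9814001 to 9815000, 13.4 to 14.4 kb upstream, with 51 Ezh2 and 8 input intervals (5.48-fold, 2.58 to 13.4, adjusted exact binomial p = 2.24e-05). That bin was also called in Th1, with 34 Ezh2 and 5 input intervals. By the fold used for calls, other bins were highest. In Th1 this was 9820001 to 9821000 (20.7-fold, on 1 input interval). The bin from 9817001 to 9818000 (10.1-fold, 45 Ezh2 and 6 input intervals) also exceeded 9805001 to 9806000 (9.63-fold). In Th2 it was 9812001 to 9813000 (9.65-fold, 50 Ezh2 and 4 input intervals), against 5.21-fold at 9814001 to 9815000. By this fold the Th1 maximum lay farther upstream than that of Th2. On the gene side the highest bins held 16 Ezh2 intervals in Th1, from 9794001 to 9795000 with 15 in input, and 14 in Th2, from 9771001 to 9772000 and from 9776001 to 9777000, with 9 in input in each.

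In the first 10 whole bins upstream, Th1 Ezh2 intervals ran from 10 to 63 with a median of 34.5, and Th2 from 10 to 29 with a median of 21.5. Per library total, Th1 was higher in 10 of these 10 bins. Of them, 9 were called in Th1 and 0 in Th2. In the next 10 bins, Th1 ran from 13 to 47 with a median of 32.5 and Th2 from 11 to 51 with a median of 37.0, with 8 and 6 calls. Here both libraries were clearly above their inputs. Over the last 9 bins the medians fell to 9 in Th1 and 12 in Th2, and none was called.

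At this depth a bin can be well above input without a call: from 9807001 to 9808000 the Th2 library held 29 Ezh2 and 10 input intervals, 2.42-fold, with an adjusted exact binomial p = 0.256. The absence of Th2 calls in the first 10 bins therefore does not show that Ezh2 was absent there. Their Th2 folds had a median of 2.05 and reached 4.11 at 9810001 to 9811000, with 21 Ezh2 and 4 input intervals (adjusted exact binomial p = 0.102). 1 Th1 call rests on a low input: from 9820001 to 9821000 the Th1 library held 21 Ezh2 intervals against 1 in input, and the control antibody held 7. The highest control count of the locus, 14, was at 9803001 to 9804000, where Th1 Ezh2 held 35 and input 13.

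In steps of 5 kb the difference between the libraries was largest just upstream of the proximal 5′ end. From 0 to 5 kb upstream the Th1 Ezh2 library held 163 intervals against 47 in input, 5.00-fold (95% exact interval 3.59 to 7.07), and the Th2 library 72 against 47, 1.32-fold (0.899 to 1.94), so the Th1 fold was 3.80 times that of Th2 (2.25 to 6.38). From 5 to 10 kb the folds were 5.96 in Th1 (4.27 to 8.49) and 2.56 in Th2 (1.79 to 3.72), a factor of 2.33 (1.40 to 3.87). From 10 to 15 kb they were 4.64 in Th1 (3.30 to 6.64) and 5.50 in Th2 (3.73 to 8.38), so here the Th2 value was the higher, within overlapping intervals. From 15 to 20 kb they were 5.59 (3.96 to 8.05) and 3.67 (2.59 to 5.32). From 20 to 25 kb the folds dropped to 1.84 in Th1 (1.21 to 2.81) and 1.29 in Th2 (0.903 to 1.85). In the last step, which ends with the window, they were 2.19 in Th1 (1.26 to 3.89), on 35 Ezh2 and 23 input intervals, and 1.31 in Th2 (0.837 to 2.09). On the gene side the 5 kb steps lay between 0.889 and 1.41 in Th1 and between 0.716 and 1.05 in Th2.

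**Figure D3:**
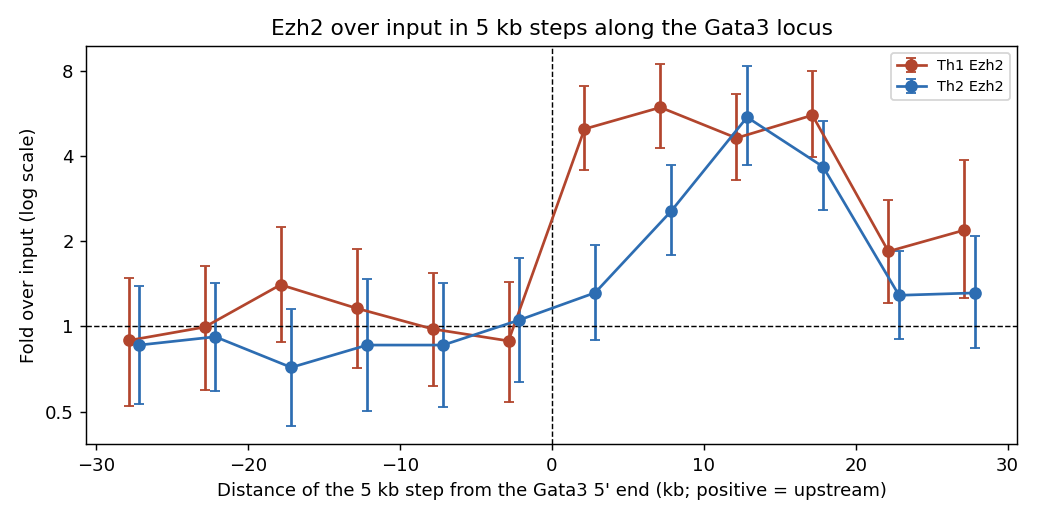
Ezh2 fold over input (log scale) in 5 kb steps by distance from the Gata3 5′ end, with 95% exact intervals for counting error and 1 library per group. Th1 is near 5-fold from the first step upstream, whereas Th2 climbs from 1.32 to 2.56 to 5.50 over the first 3 steps and meets Th1 between 10 and 15 kb.

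Over the whole upstream side, Ezh2 over input was higher in Th1 than in Th2 by a factor of 1.82 (95% exact interval 1.47 to 2.25). The difference between the folds was tested conditionally on the 4 counts' margins, which gave an exact p = 1.15e-08, and an exact p = 3.45e-08 after adjustment over the 3 windows tested. The factor was 1.17 on the gene side (0.889 to 1.53, adjusted exact p = 0.381) and 1.06 within 2 kb of the 5′ end (0.446 to 2.49, adjusted exact p = 1). The interval at the 5′ end is wide enough to hold the value of the upstream side.

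Part of the upstream factor came from the inputs. Per library total, the Th1 Ezh2 library held 1.48 times the Ezh2 intervals of Th2 (95% exact interval 1.34 to 1.65), and the Th1 input held 0.816 times those of the Th2 input (0.681 to 0.977). When each Ezh2 library was set against the input of the other cell type, the factor was 1.21 (conditional exact p = 0.0748) and no longer passed, within a range of 1.21 to 2.87 over all alternatives tried. A change in how many cells carried Ezh2 at the locus and a change in the amount per cell cannot be told apart in such pooled chromatin.

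Closest to the proximal 5′ end the difference was larger. In the first 10 kb upstream the Th1 Ezh2 library held 345 intervals and its input 91, 5.46-fold (95% exact interval 4.33 to 6.96). Th2 held 197 and 89, 1.90-fold (1.47 to 2.47). The factor between the folds was 2.87 (2.01 to 4.09, conditional exact p = 1.72e-09), and the control antibody was at 1.34-fold (0.971 to 1.84) in this stretch. In the remaining 19.4 kb the Th1 counts were 398 and 153, 3.75-fold (3.10 to 4.55), and the Th2 counts 496 and 158, 2.70-fold (2.25 to 3.25), with a factor of 1.39 (1.06 to 1.81).

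The shape of the profile can be compared without any scaling of the libraries. Of the Ezh2 intervals on the upstream side, 46.4% lay in the first 10 kb in Th1 and 28.4% in Th2, an odds ratio of 2.18 (95% exact interval 1.74 to 2.73, Fisher's exact p = 1.83e-12). The inputs placed 37.3% and 36.0% of theirs in that stretch, an odds ratio of 1.06 (0.719 to 1.55, Fisher's exact p = 0.780). This test was chosen after the profile had been seen. With the edge at 5 kb or 15 kb the odds ratio was 2.42 or 1.51, in the same direction.

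Against the other Ezh2 regions of the genome, Gata3 stood toward Th1. Pooled calling gave 2902 regions of at least 3 kb, whose Ezh2 ratio of Th1 to Th2 had a median of 0.854, that is, most leaned toward Th2. In the pooled Gata3 region the Th1 libraries held 605 Ezh2 and 154 input intervals, 5.65-fold (95% exact interval 4.74 to 6.80). The Th2 libraries held 549 and 140, 3.36-fold (2.80 to 4.09), and the Th1 control was at 1.10-fold (0.844 to 1.42). Relative to that median the Ezh2 ratio was 1.79 (1.59 to 2.01, two-sided exact binomial test, p = 5.62e-20 adjusted over 2902 regions). By this rule, without a limit on size, 5.27% of regions were higher in Th1 and 7.2% higher in Th2. The ratio of folds over input, relative to its own median of 0.826, was 2.03 (1.56 to 2.65, conditional exact test, p = 1.23e-04 adjusted over 2902 regions). By that test 6 regions (0.207%) were higher in Th1, Gata3 among them, and 9 (0.31%) were higher in Th2. The locus was picked with earlier results of these data known, and these p-values do not cover that choice.

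Of the 565 pooled regions of at least 10 kb, Gata3 ranked 1 by the ratio of folds relative to the median of all 2902 regions. On that relative scale it stood at 2.03, the next at 1.62 and the median of the 565 at 0.968. By the Ezh2 ratio alone it ranked 2 of 565, and 51 of all 2902 regions. Among the 565 regions of at least 10 kb, Gata3 was 218th by its Th1 fold and 549th by its Th2 fold. The regions had been called on the sum of the same Ezh2 libraries, so the ranks are a description.

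**Figure D4:**
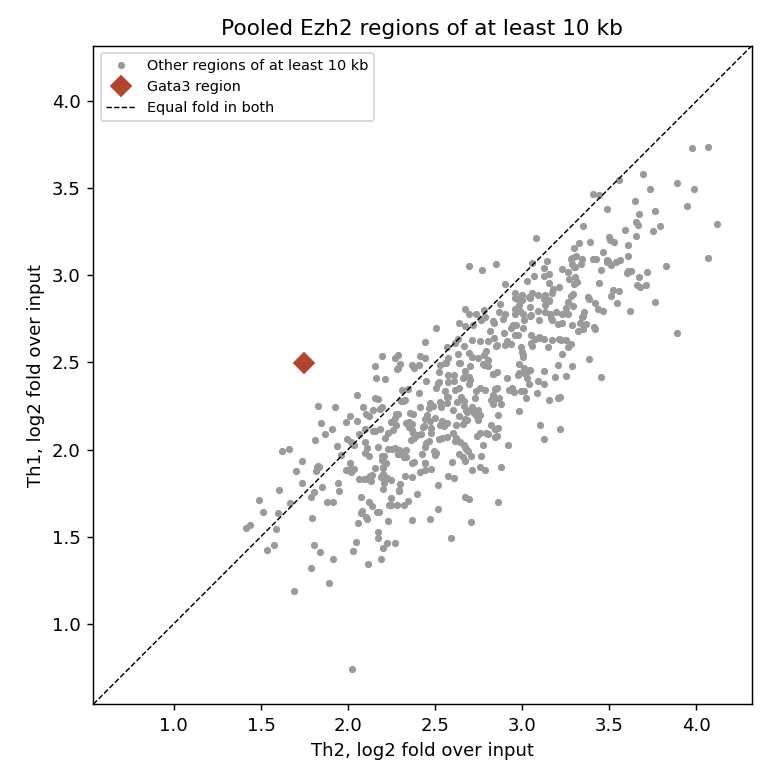
Log2 fold over input in Th1 against Th2 for the 565 pooled Ezh2 regions of at least 10 kb, each point 1 region, with the Gata3 region as a diamond and the dashed line at equal folds. The Gata3 region lies farthest above the line, at 5.65-fold in Th1 and 3.36-fold in Th2.

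The regions closest to Gata3 in both folds were sought among 349 pooled regions of 12 to 27 kb, by the Euclidean distance of their log2 folds in Th1 and Th2, each fold from 1 Ezh2 and 1 input library. The nearest lay on chromosome 9 between 107127001 and 107141000, with a fold of 4.56 in Th1 and 4.04-fold in Th2 and a log2 distance of 0.405. It was followed by chromosome 2 from 19364001 to 19379000, at 4.34-fold and 3.75-fold and a distance of 0.412. The third was chromosome 4 from 154323001 to 154338000, at 4.74-fold and 4.25-fold and a distance of 0.422. Regions of other lengths were not considered, and some of 10 kb lay nearer. Each of the 3 had a higher Th2 fold and a lower Th1 fold than Gata3, and none matched its Th1 to Th2 ratio.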

How the data were processed

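The deposited values are read counts per genomic interval, without strand and without normalization, as the files show. Per the submitters' processing notes, CASAVA and the genome build mm9 were used. How reads were aligned, extended or filtered is not given in the sources used here. Gel-selected fragments of 170 to 250 bp were PCR-amplified for 18 cycles and sequenced for 36, per the labels' protocols. Each interval was counted once at its midpoint, which limits PCR duplicates, and divided by the library's total on chromosomes 1 to 19 and X. Bins of 1 kb with under 10 intervals over both libraries were not tested. Called bins were merged over a gap of at most 1 bin. Intervals on folds are Clopper-Pearson or conditional exact ones, computed with scipy 1.17.1 and numpy 2.4.6 without any replicate. The bin calls and the Th1 against Th2 tests of regions were run on simulated libraries with known folds. The regions there were set by position and not scaled to a median, and the other steps were not simulated. Simulated counts varied by counting error alone around the same input profile for both cell types. Other differences between libraries or inputs were therefore not covered. Bins named singly are those with the most Ezh2 intervals of each side and library and the bin of the 5′ end, with others named after their values were seen. The locus, windows and tests were chosen with earlier results of these data known. The mm9 position of the gene was given with the choice of the locus, and no mm9 annotation was used. Alternatives were all reads, background scaling, exchanged inputs, equal depth, the control antibody as background, other bin sizes, thresholds and window widths.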

Additional observations from a re-analysis of the deposited data

Results flagged for a closer look

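The Th1 and Th2 libraries differed at Gata3 in 4 measures that overlap in the intervals they count. On the upstream side the fold over input was 1.82 times as high in Th1 (conditional exact p = 1.15e-08), but with the inputs exchanged between the cell types this was 1.21 and no longer passed (conditional exact p = 0.0748). At the pooled region the Ezh2 intervals were 1.79 times as many in Th1 relative to the median of all regions (exact binomial test, adjusted p = 5.62e-20). There the fold over input was 2.03 times as high in Th1 relative to its median (conditional exact test, adjusted p = 1.23e-04). That region was called on the sum of the same Ezh2 libraries, and the adjusted p-values do not cover the choice of the locus. The odds that an upstream Ezh2 interval lay in the first 10 kb were 2.18 times as high in Th1 (Fisher's exact p = 1.83e-12), a test chosen after the profile had been seen and so no independent evidence of it. Each rests on 1 library per cell type, and the inputs differed on the upstream side by a factor of 0.816.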

How the results depend on the processing

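Of 74 values computed under alternatives for 12 results, 59 were counted as unchanged. These kept their side of the threshold, or stayed within 1.5 times for lengths called. They also kept their direction, except on the gene side of Th1, where neither the main value nor these alternatives passed. There 1.04-fold became 0.979-fold with all reads, 0.978-fold at equal depth and 0.930-fold with the control antibody as background. The length called in the locus was 17 kb in Th1 and 6 kb in Th2. In Th1 it was 11 kb with 500 bp bins and 10 kb with strict thresholds (adjusted p below 0.001, fold of at least 4). In Th2 it was 16 kb with all reads, 15 kb with background scaling, 14 kb with 2 kb bins and 3 kb with strict thresholds. The gene side of Th1 passed at 1.48-fold with background scaling. That of Th2 was 0.813-fold and passed with all reads, whose counts are not independent molecules, and turned to 1.25-fold with background scaling. Background scaling takes its totals from bins below the genome median of Ezh2 over input and so raises all folds. Around the 5′ end, Th2 no longer passed at 1.499-fold with the other input, 1.67-fold at equal depth, 2.21-fold with 1 kb and 1.21-fold with 5 kb to each side, and Th1 at 1.83-fold with 1 kb. The upstream factor between Th1 and Th2 was 1.21 with exchanged inputs and did not pass. The cause of the other changes was not tested. The fold on the upstream side passed under every alternative tried, from 3.58 to 6.26 in Th1 and from 1.90 to 3.39 in Th2, as did both ratios at the pooled region (1.53 to 1.89 and 1.57 to 2.08). The alternatives for the odds ratio were chosen after seeing the data. No paired analysis was possible because there was a single library per group, and for the same reason no replicate could be left out.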

Other observations

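Reads per distinct interval, a measure of PCR duplication, were computed on both sides of the 5′ end of Gata3. In the Th1 Ezh2 library they were 2.12 on the upstream side and 2.02 on the gene side, and in the Th2 Ezh2 library 2.08 and 1.93. The inputs were at 1.27 and 1.24 in Th1 and at 1.62 and 1.83 in Th2. Over their whole libraries the Ezh2 samples had 2.24 reads per interval in Th1 and 2.04 in Th2.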
